A study of Homo sapiens with 10 samples.

Results

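PC3-Epi and PC3-EMT14 are an epithelial and a mesenchymal population of PC3, a human prostate cancer cell line, and their RNA was compared across 23170 genes and 37557 isoforms, all of the rows deposited for this pair. PC3-Epi (2 samples) is a luciferase-expressing subpopulation of PC3 that was picked for bioluminescence and a stable epithelial shape. PC3-EMT14 (3 samples) was derived from PC3-Epi: it is 1 of several mesenchymal populations isolated after PC3-Epi cells had been cultured together with macrophages made from IL4-treated CD14+ monocytes. The comparison therefore rests on 1 line of each kind. These 5 samples belong to a series of 10 samples in 4 groups, the other groups being PC3-EMT14 with OVOL1 or with OVOL2 overexpressed. Nothing in the labels says whether the samples of a line were separate cultures. The paper describes them as biological replicates, at least 2 per line.

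Each gene has 1 value per line, in FPKM (fragments mapped to a transcript, relative to its length and to the size of the library), which the authors computed over all samples of that line. No spread between samples and no depth can be read from such pooled values, so no test was made from them. The test columns that the authors deposited beside them were not used, and each comparison here is a difference in size between 2 pooled levels. A gene was counted as higher in a line when its level there was at least 1 FPKM and at least 2-fold that of the other line after 0.1 FPKM was added to both. The log2 ratio is that of PC3-Epi over PC3-EMT14 on the same FPKM + 0.1 scale, so a positive value marks a gene higher in PC3-Epi. A ratio so computed understates the difference of genes near 0.

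Epithelial cells are held together by adherens junctions, tight junctions and desmosomes, are polarized from apex to base, and carry keratin filaments. In the epithelial-to-mesenchymal transition, transcription factors of the ZEB, SNAIL and TWIST families repress junction genes such as E-cad (CDH1), and the cells take up vimentin filaments, matrix production and motility. GRHL, OVOL and ESRP proteins act on the other side: GRHL and OVOL factors maintain epithelial gene expression, and ESRP1 and ESRP2 direct epithelial patterns of splicing.

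Of the 12441 genes that reached 1 FPKM in the higher line, 887 were higher in PC3-Epi, 7.13% of the genes compared, and 991 were higher in PC3-EMT14, 7.97%. The median log2 ratio was -0.01 and the median size of the ratio, without its sign, was 0.35, so most genes lay close to the diagonal. Differences of 8-fold or more were found for 215 genes on the PC3-Epi side and 193 genes on the PC3-EMT14 side. Of the genes higher in PC3-Epi, 371 were under 1 FPKM in PC3-EMT14, and 425 of those higher in PC3-EMT14 were under 1 FPKM in PC3-Epi. These counts include rows of small RNAs. Among them are 92 small RNA rows listed at 0 in the other line, all of which pass 8-fold by the way the ratio is computed.

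**Figure D1:**
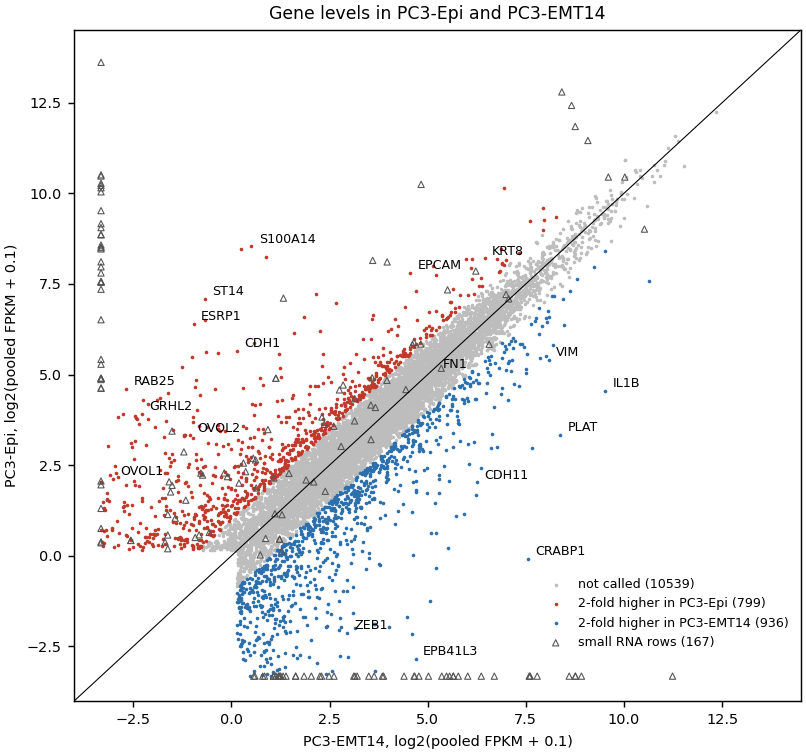
Level of each gene in PC3-Epi against PC3-EMT14, both axes as log2(pooled FPKM + 0.1), for the 12441 genes at 1 FPKM or more in the higher line; red and blue points are genes at least 2-fold higher in PC3-Epi or PC3-EMT14, grey points are the rest, and open triangles are rows of small RNAs. S100A14, ST14 and ESRP1 lie far above the diagonal, CRABP1, EPB41L3 and ZEB1 far below it, and FN1 on it, while many triangles sit at a level of 0 in 1 line.

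The labels of the lines were first set against marker genes. Among 7 epithelial markers, 5 were higher in PC3-Epi: CDH1 (1.00 FPKM in PC3-EMT14 against 50.6 in PC3-Epi; chr16:68771195-68869444 on hg19), EPCAM, KRT8, KRT18 and CLDN7. KRT19 (671 and 742 FPKM in PC3-EMT14 and PC3-Epi) and CLDN4 (271 and 212) were high in both lines. Of 4 mesenchymal markers, VIM, the vimentin gene, was at 271 FPKM in PC3-EMT14 against 42.5 in PC3-Epi. ZEB1 was at 7.59 FPKM in PC3-EMT14 against 0.130 in PC3-Epi. The other markers, N-cadherin (CDH2, 18.0 and 11.3 FPKM) and fibronectin (FN1, 36.8 and 33.8 FPKM), differed by less than 2-fold. EPCAM, though higher in PC3-Epi, was still at 23.4 FPKM in PC3-EMT14 against 224 FPKM in PC3-Epi.

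PC3-EMT14 was isolated from a culture with macrophages, so macrophage genes were read in both lines. Of 20 macrophage markers, 19 were under 1 FPKM in both lines, and C1QA, C1QB and C1QC were listed at 0 in both. CD68, a lysosomal protein that many cell types make, was the exception at 54.1 FPKM in PC3-EMT14 against 13.2 in PC3-Epi. The summed level of the 20 markers was 55.0 FPKM in PC3-EMT14 against 14.7 in PC3-Epi, nearly all of it CD68. PTPRC, the leukocyte common antigen, stood at 0.0161 and 0.0185 FPKM, and CD14 at 0.0861 and 0.0499 FPKM. Among 7 expressed genes of prostate identity 2 were higher in PC3-EMT14 and 1, PSCA, in PC3-Epi. PSCA was not counted with 1 FPKM added in place of 0.1. HOXB13, a homeobox factor of the prostate, was at 89.8 FPKM in PC3-EMT14 against 22.2 in PC3-Epi, and STEAP1, a membrane antigen, at 21.3 and 24.6 FPKM. KLK2 and KLK3, secreted proteases of the prostate, were listed at 0 in both lines.

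The genes of 24 lists were then read by role. A member is called expressed here when it reached 1 FPKM in the higher line, and some members did so only through the line where they were high, so the counts are descriptions, to be read beside the 7.13% and 7.97% of all expressed genes that were higher in PC3-Epi and in PC3-EMT14. The median log2 ratio of a list is over all members with any signal, and was -0.03 over all 18845 such genes. Of 14 EMT regulators 8 were expressed, and 3 were higher in PC3-EMT14 and none in PC3-Epi. ZEB1 (chr10:31608101-31818742), a zinc finger repressor of CDH1, was 33.5-fold higher in PC3-EMT14 on the FPKM + 0.1 scale. SNAI2, which encodes the repressor SLUG, was at 4.05 FPKM in PC3-EMT14 against 1.35 in PC3-Epi. TCF4, an E-protein, was at 2.43 FPKM in PC3-EMT14 against 0.624 in PC3-Epi. Other classic regulators did not follow: ZEB2 was near 0 in both lines (0.145 and 0.0548 FPKM), TWIST1 differed by less than 2-fold (5.69 and 3.42 FPKM), and SNAI1 was numerically higher in PC3-Epi (1.35 and 2.46 FPKM). The median log2 ratio of the list was 0.08 over the members with any signal and -0.27 over those at 1 FPKM or more, of opposite sign.

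On the epithelial side, 8 of the 13 expressed members of a list of 15 factors were higher in PC3-Epi. OVOL1 (chr11:65554529-65564685) was at 0.0243 FPKM in PC3-EMT14 against 4.25 in PC3-Epi, and OVOL2 (chr20:18004796-18038521) at 0.383 FPKM in PC3-EMT14 against 9.91 in PC3-Epi. GRHL2, a grainyhead factor that sustains junction genes, had 0.106 FPKM in PC3-EMT14 against 15.0 in PC3-Epi. Its relatives GRHL1 and GRHL3 differed in the same direction, with log2 ratios of 1.82 and 4.11. EHF and ELF3, ETS factors of epithelia, were at 11.8 and 19.9 FPKM in PC3-Epi and at 0.460 and 8.40 FPKM in PC3-EMT14. FOXA2 went the other way, at 24.1 FPKM in PC3-EMT14 against 2.22 in PC3-Epi. KLF4, KLF5 and FOXA1 were expressed in both lines at levels less than 2-fold apart. The median log2 ratio of the list was 1.23.

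Among adherens junction genes the cadherins differed in both directions and most catenins were level. CDH1 and CDH3 (P-cadherin) were higher in PC3-Epi, CDH3 at 36.5 FPKM in PC3-Epi against 2.28 in PC3-EMT14. CDH11 (OB-cadherin, a cadherin of mesenchymal cells and bone) was at 76.2 FPKM in PC3-EMT14 against 3.98 in PC3-Epi. CDH6 was at 1.41 FPKM in PC3-EMT14 against 0.134 in PC3-Epi. The catenins that link cadherins to the cell interior were nearly level: CTNNB1 was at 97.9 FPKM in PC3-EMT14 against 98.2 in PC3-Epi. The row of CTNND1, which TMX2 shares, was at 116 FPKM in PC3-EMT14 against 123.02 in PC3-Epi. A large part of it was TMX2, such as isoform TCONS_00005558 at 34.1 FPKM in PC3-EMT14 against 38.0 in PC3-Epi. The CTNND1 isoforms differed in direction: TCONS_00005565 was at 13.3 FPKM in PC3-EMT14 against 0.263 in PC3-Epi, and TCONS_00005573 at 14.3 against 29.8 FPKM. CTNNA1 (alpha-catenin) was under 0.3 FPKM in both lines, and PC3 is known as an alpha-catenin-deficient line. In all, 4 of 12 expressed members were higher in PC3-Epi (CDH1, CDH3, JUP and PVRL4), 2 were higher in PC3-EMT14, and the median log2 ratio was 0.05.

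In the tight junction list the differences of 2-fold or more had 1 direction, with 9 of 16 expressed genes higher in PC3-Epi, none higher in PC3-EMT14 and a median log2 ratio of 1.30. The membrane proteins CLDN1, CLDN7, OCLN (occludin), MARVELD2 (tricellulin) and MARVELD3 belonged to this group, as did LSR and CXADR. MARVELD3 had 0.0690 FPKM in PC3-EMT14 against 8.48 in PC3-Epi, and LSR, which recruits tricellulin, 1.38 FPKM in PC3-EMT14 against 58.1 in PC3-Epi. Of the cytoplasmic plaque, TJP3 and CGN (cingulin) were higher in PC3-Epi, whereas TJP1, also known as ZO-1, differed by less than 2-fold. CLDN3 and CLDN4 did not follow CLDN7, and CLDN4 was at 271 FPKM in PC3-EMT14 against 212 in PC3-Epi.

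Desmosome genes were mostly within 2-fold. Of 11 expressed genes, DSP (desmoplakin, 3.13 FPKM in PC3-EMT14 against 12.5 in PC3-Epi) and PKP3 were higher in PC3-Epi, DSC3 was higher in PC3-EMT14, and 8 lay within 2-fold. PKP3 was not counted with both lines scaled to the same summed FPKM, nor DSC3 with 1 FPKM added. PKP1 was at 91.5 FPKM in PC3-EMT14 against 51.2 in PC3-Epi. DSG2 was at 12.6 FPKM in PC3-EMT14 against 17.1 in PC3-Epi.

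Polarity and apical trafficking genes held some of the largest ratios of all genes, while PARD3, PARD6A, PARD6B, PRKCI and DLG1 were level. RAB25, a small GTPase of apical recycling, was at 0.0566 FPKM in PC3-EMT14 against 24.2 in PC3-Epi. CRB3, the Crumbs protein of epithelial cells, was at 0.542 FPKM in PC3-EMT14 against 49.1 in PC3-Epi. INADL, another polarity gene, was at 1.95 FPKM in PC3-EMT14 against 6.92 in PC3-Epi. EPS8L1 was at 0.0831 FPKM in PC3-EMT14 against 14.3 in PC3-Epi. AP1M2, the epithelial subunit of the AP-1 clathrin adaptor, was at 0.430 FPKM in PC3-EMT14 against 25.3 in PC3-Epi. MYO5B, the motor that works with RAB25, was at 0.399 FPKM in PC3-EMT14 against 2.97 in PC3-Epi. PARD3, PARD6A, PARD6B, PRKCI and DLG1, which set up the polarity axis, had log2 ratios between 0.05 and 0.18. In total 9 of 20 expressed members were higher in PC3-Epi and none in PC3-EMT14. SCRIB was counted among the 9 only because its row holds a microRNA entry, MIR937, listed at 0 in PC3-EMT14 and at 206 FPKM in PC3-Epi. Without that entry SCRIB had 35.2 FPKM in PC3-EMT14 against 47.4 in PC3-Epi.

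ZEB factors bind the E-box CAGGTG, whose other strand reads CACCTG, so this hexamer was looked for on both strands in the 250 bases before the start sites of a promoter table from RefSeq (GRCh38.p14). It occurs in 17.5% of the 35116 promoters of that table, and in 2.53% at least 2 times. The table covers 66 of the 101 listed genes higher in PC3-Epi that carry no small RNA in their row, or 65.3%. That is too few to compare the share between gene sets, and no difference in share was tested. Counted by gene, with the promoter of most matches for each, 26 of the 66 held the hexamer and 10 held it at least 2 times, beside 20.6% and 3.08% of all genes in the table. Only listed genes already higher in PC3-Epi were counted, so no excess of the hexamer is read from these counts. Of the covered genes CRB3, CLDN7, AP1M2 and MYO5B held 3 or more matches, and the first 3 of these are shown 5′ to 3′ on the strand of the gene, with the hexamers in capitals, so that the matches can be seen beside the levels of these genes.
CRB3, chr19:6464021-6464270, + strand, GRCh38.p14, 5 matches: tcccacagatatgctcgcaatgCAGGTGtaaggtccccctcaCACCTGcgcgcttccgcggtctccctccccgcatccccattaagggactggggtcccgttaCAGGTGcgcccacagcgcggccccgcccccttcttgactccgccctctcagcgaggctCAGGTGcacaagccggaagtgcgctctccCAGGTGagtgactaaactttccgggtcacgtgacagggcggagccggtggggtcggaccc
CLDN7, chr17:7262479-7262728, - strand, GRCh38.p14, 4 matches: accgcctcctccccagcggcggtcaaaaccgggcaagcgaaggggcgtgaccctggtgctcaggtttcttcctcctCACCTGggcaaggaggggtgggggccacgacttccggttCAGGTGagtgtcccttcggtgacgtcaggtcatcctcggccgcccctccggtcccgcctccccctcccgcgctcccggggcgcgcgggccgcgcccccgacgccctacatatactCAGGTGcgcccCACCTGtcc
AP1M2, chr19:10587313-10587562, - strand, GRCh38.p14, 3 matches: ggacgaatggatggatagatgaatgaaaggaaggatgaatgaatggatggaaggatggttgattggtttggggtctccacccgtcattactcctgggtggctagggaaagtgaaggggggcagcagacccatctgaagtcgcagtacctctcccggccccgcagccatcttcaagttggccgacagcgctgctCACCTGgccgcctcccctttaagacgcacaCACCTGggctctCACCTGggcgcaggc
CLDN7 was at 11.9 FPKM in PC3-EMT14 against 92.3 in PC3-Epi. A match describes these letters and is no measurement of binding.

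Of 11 keratins at 1 FPKM or more, 6 were higher in PC3-Epi and none in PC3-EMT14. KRT7 had 246 FPKM in PC3-EMT14 against 779 in PC3-Epi, KRT8 87.7 FPKM in PC3-EMT14 against 296 in PC3-Epi, and its partner KRT18 117 FPKM in PC3-EMT14 against 351 in PC3-Epi. KRT6A, KRT16 and KRT80 were also higher, and the median log2 ratio was 0.95. KRT81, a hair-type keratin and the most abundant of the list, was at 1752 FPKM in PC3-EMT14 against 1282 in PC3-Epi. Reads of KRT6A, KRT6B and KRT16, close relatives in sequence, could be divided between them with error.

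Surface proteins of epithelia had larger ratios. Of 9 expressed genes in this list 7 were higher in PC3-Epi, with a median log2 ratio of 2.43. LAD1 (ladinin, a basement membrane protein) was at 4.35 FPKM in PC3-EMT14 against 149 in PC3-Epi. PROM2 was at 1.55 FPKM in PC3-EMT14 against 29.7 in PC3-Epi. CEACAM5 was at 0.0834 FPKM in PC3-EMT14 against 8.83 in PC3-Epi. CD24 went with neither line (80.1 and 68.2 FPKM).

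Membrane serine proteases and their inhibitors had a median log2 ratio of 2.40, and 6 of the 7 genes at 1 FPKM or more were higher in PC3-Epi. ST14 (matriptase, chr11:130029682-130080257), which processes other proteases and growth factors at the cell surface, was at 0.532 FPKM in PC3-EMT14 against 135 in PC3-Epi. PRSS8 (prostasin), its partner in a proteolytic cascade, was at 1.63 FPKM in PC3-EMT14 against 26.2 in PC3-Epi. PRSS22 was at 0.338 FPKM in PC3-EMT14 against 9.90 in PC3-Epi. TMPRSS2 was at 0.967 FPKM in PC3-EMT14 against 5.50 in PC3-Epi. SPINT1, the Kunitz inhibitor of matriptase, was higher as well (29.6 and 74.3 FPKM), whereas SPINT2 was level (182 and 204 FPKM). In PC3-EMT14 both inhibitor genes were therefore above 29 FPKM while ST14 was under 1 FPKM.

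The 15 largest ratios in each direction were all held by small nucleolar RNAs and microRNAs, which are treated at the end. Among the remaining genes, a choice made after the values were seen, S100A14 led the PC3-Epi side (chr1:153586732-153588790; 1.32 FPKM in PC3-EMT14 against 372 in PC3-Epi). It is a small calcium-binding protein, as is S100A9 at 1.76 FPKM in PC3-EMT14 against 304 in PC3-Epi. LCN2, a lipocalin that binds bacterial iron carriers, was at 0.526 FPKM in PC3-EMT14 against 90.1 in PC3-Epi. CA9, a carbonic anhydrase induced by low oxygen, was at 0.3998 FPKM in PC3-EMT14 against 44.9 in PC3-Epi. FXYD3, a regulator of the sodium pump, was at 0.315 FPKM in PC3-EMT14 against 36.9 in PC3-Epi. FUT3, a fucosyltransferase of the Lewis antigens, had 0.0485 FPKM in PC3-EMT14 against 14.9 in PC3-Epi, and NPNT (nephronectin), an extracellular ligand of integrins, 0.111 FPKM in PC3-EMT14 against 19.5 in PC3-Epi. ATP2C2, a calcium pump of the secretory pathway, C1orf210 and BSPRY completed the group with ST14, ESRP1, RAB25, EPS8L1 and CRB3. Every gene of the 15 was under 2 FPKM in PC3-EMT14 and above 13 FPKM in PC3-Epi.

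On the PC3-EMT14 side the largest ratio was that of CRABP1, a carrier of retinoic acid (chr15:78632666-78640572), at 189 FPKM in PC3-EMT14 against 0.838 in PC3-Epi. EPB41L3, a band 4.1 protein of the membrane skeleton, was at 25.8 FPKM in PC3-EMT14 against 0.0395 in PC3-Epi. NTSR1, the neurotensin receptor, was at 24.1 FPKM in PC3-EMT14 against 0.123 in PC3-Epi. HSD17B2, which inactivates sex steroids, was at 22.1 FPKM in PC3-EMT14 against 0.211 in PC3-Epi. KDR, a receptor of vascular endothelial growth factor, and ESM1, a secreted proteoglycan known from endothelium, were at 16.1 and 45.9 FPKM in PC3-EMT14 and at 0.156 and 1.07 FPKM in PC3-Epi. BCL2A1, a survival protein, was at 36.7 FPKM in PC3-EMT14 against 0.685 in PC3-Epi. TSPAN8, a tetraspanin of carcinoma cells, was at 12.2 FPKM in PC3-EMT14 against 0.169 in PC3-Epi. The cysteine protease inhibitors CST4 and CST1 were at 12.5 and 5.76 FPKM in PC3-EMT14 and under 0.01 FPKM in PC3-Epi. Both belong to a cluster of near-identical genes, so the split between them is uncertain. NCRNA00261, UBE2QL1, PDE3A, ALDH2 and PLD5 made up the remainder.

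**Figure D2:**
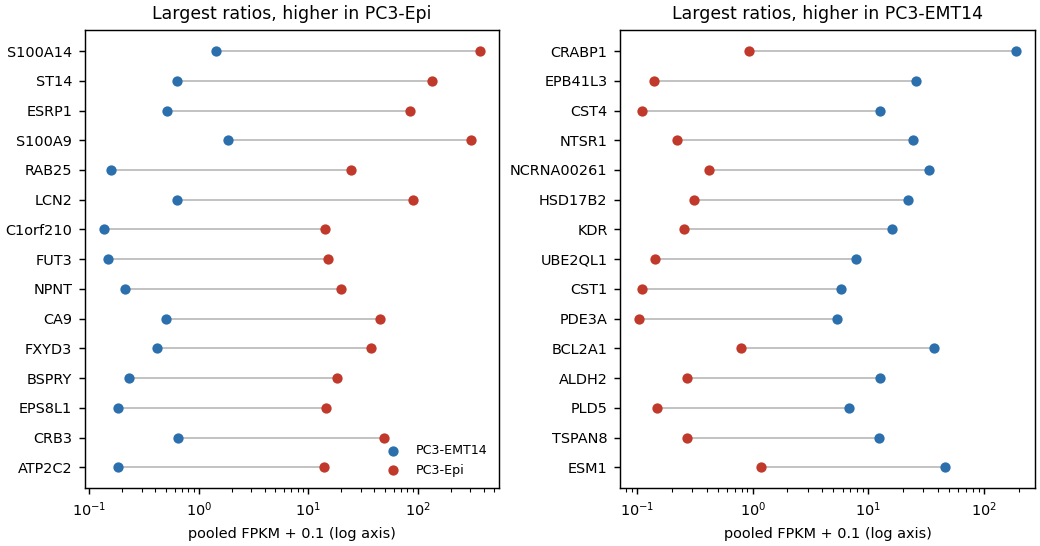
Pooled FPKM + 0.1 on a log axis in PC3-EMT14 (blue) and PC3-Epi (red) for the 15 genes with the largest ratio in each direction, small RNAs left out; each line joins the 2 levels of a gene. S100A14 runs from 1.32 to 372 FPKM on the left, and CRABP1 from 189 to 0.838 FPKM on the right.

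By difference in FPKM, the largest excesses in PC3-Epi after the small RNAs were KRT7 and MAL2, a protein of apical transport (248 and 619 FPKM in PC3-EMT14 and PC3-Epi). LXN, a carboxypeptidase inhibitor, was at 62.5 FPKM in PC3-EMT14 against 289 in PC3-Epi. S100A2 was at 69.7 FPKM in PC3-EMT14 against 294 in PC3-Epi. PPIA (308 and 652 FPKM) and RPS20 (246 and 503 FPKM) were also in this group; both have many processed copies in the genome that share reads. In PC3-EMT14 the largest excess was that of MSMP, a secreted microseminoprotein, at 1585 FPKM in PC3-EMT14 against 192 in PC3-Epi. IL1B followed at 733 FPKM in PC3-EMT14 against 23.4 in PC3-Epi, then FTL (ferritin light chain), SH3BGRL3, PLAT, IGFBP3, ANXA5 and PSAP, with VIM and COL6A2 behind them.

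The mesenchymal cytoskeleton list went both ways. VIM and ACTA2 (smooth muscle actin, 1.08 FPKM in PC3-EMT14 against 0.349 in PC3-Epi) were higher in PC3-EMT14, whereas ACTG2, TAGLN, TPM1 and MYL9 were higher in PC3-Epi. With both lines scaled to the same summed FPKM, TPM1 was no longer counted and the list stood at 3 genes each way, and ACTA2 was not counted with 1 FPKM added in place of 0.1. These contractile genes are often read as mesenchymal, and here ACTG2 was at 0.362 FPKM in PC3-EMT14 against 5.39 in PC3-Epi. TAGLN (transgelin) was at 0.585 FPKM in PC3-EMT14 against 2.86 in PC3-Epi. TPM1 was at 24.96 FPKM in PC3-EMT14 against 54.3 in PC3-Epi. MYL9, a myosin light chain, was at 10.6 FPKM in PC3-EMT14 against 24.0 in PC3-Epi. The median log2 ratio of the list was 0.36. Nestin (NES) and moesin (MSN) were numerically higher in PC3-EMT14 without reaching 2-fold, at 27.0 against 14.3 and 205 against 120.2 FPKM.

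Of 22 expressed extracellular matrix genes 8 were higher in PC3-EMT14 and 1 in PC3-Epi, with a median log2 ratio of -0.62. The type VI collagen chains went together: COL6A1 was at 181 FPKM in PC3-EMT14 against 32.6 in PC3-Epi. COL6A2 was at 260.5 FPKM in PC3-EMT14 against 45.1 in PC3-Epi. COL6A3 was at 39.0 FPKM in PC3-EMT14 against 4.27 in PC3-Epi. FBN1 (fibrillin) was at 6.59 FPKM in PC3-EMT14 against 0.141 in PC3-Epi. COL5A1 was at 3.74 FPKM in PC3-EMT14 against 0.357 in PC3-Epi. HAPLN1, which links hyaluronan to proteoglycans, was at 5.78 FPKM in PC3-EMT14 against 0.769 in PC3-Epi, and TGFBI and COL12A1 showed the same direction. Fibroblast collagens were low in both lines, with COL1A2 and COL3A1 under 0.1 FPKM and COL1A1 at 3.69 and 2.31 FPKM. THBS1 (thrombospondin) was the exception on the PC3-Epi side, at 6.29 FPKM in PC3-EMT14 against 126 in PC3-Epi. LOXL1 was level and SPARC and CTGF stayed under 2-fold.

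Of 23 expressed integrin and laminin genes 7 were higher in PC3-EMT14 and 3 in PC3-Epi, with a median log2 ratio of -0.54. ITGA5, the fibronectin receptor subunit, was at 36.8 FPKM in PC3-EMT14 against 9.04 in PC3-Epi. ITGB3 was at 15.6 FPKM in PC3-EMT14 against 5.48 in PC3-Epi. The row of ITGA1, which PELO shares, was at 54.8 FPKM in PC3-EMT14 against 12.5 in PC3-Epi. LAMA5 and LAMB2 followed this direction at 48.9 and 30.0 FPKM in PC3-EMT14 against 17.4 and 14.02 FPKM in PC3-Epi. The integrin subunits that pair with ITGAV to release active TGF-beta were the reverse: ITGB6 was at 0.0787 FPKM in PC3-EMT14 against 6.28 in PC3-Epi. ITGB8 was at 0.848 FPKM in PC3-EMT14 against 3.64 in PC3-Epi. ITGB1 (463 and 284 FPKM) and ITGB4 (102 and 125 FPKM), the abundant beta chains, were within 2-fold, and the hemidesmosome laminin chains LAMA3 and LAMB3 likewise.

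Of 13 expressed genes of matrix proteolysis 8 were higher in PC3-EMT14 and 1 in PC3-Epi, with a median log2 ratio of -0.32. PLAT, the tissue plasminogen activator, was at 332 FPKM in PC3-EMT14 against 9.99 in PC3-Epi. PLAUR, the urokinase receptor, was at 63.8 FPKM in PC3-EMT14 against 27.3 in PC3-Epi, but urokinase itself (PLAU) was very abundant in both lines, at 984 and 927 FPKM. MMP14, a membrane-bound collagenase, was at 117 FPKM in PC3-EMT14 against 21.9 in PC3-Epi, while MMP15 of the same family was at 0.614 FPKM in PC3-EMT14 against 3.94 in PC3-Epi. The secreted gelatinases MMP2 and MMP9 were under 1 FPKM in both lines. TIMP1, a metalloprotease inhibitor, was higher in PC3-EMT14 too (347 and 136 FPKM).

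Of the cystatins, CST3, CST1 and CST4 were higher in PC3-EMT14, CST3 at 299 FPKM in PC3-EMT14 against 143 in PC3-Epi. CST6 was the opposite, at 0.643 FPKM in PC3-EMT14 against 24.2 in PC3-Epi.

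TGF-beta and BMP genes went both ways, 4 higher in PC3-Epi and 6 in PC3-EMT14 among 25 expressed, with a median log2 ratio of -0.21. Among ligands TGFB2 was at 1.12 FPKM in PC3-EMT14 against 24.9 in PC3-Epi. BMP4 was at 2.85 FPKM in PC3-EMT14 against 7.66 in PC3-Epi. GDF15, a stress-induced relative, was at 8.99 FPKM in PC3-EMT14 against 46.9 in PC3-Epi. These ligands were higher in the epithelial line. TGFB1 was within 2-fold (50.04 and 29.5 FPKM). The extracellular BMP antagonist NOG (noggin) was at 65.6 FPKM in PC3-EMT14 against 8.33 in PC3-Epi. LTBP1, which stores latent TGF-beta in the matrix, was at 56.7 FPKM in PC3-EMT14 against 8.89 in PC3-Epi. BMPR1B, TGFBR3 and GREM1 were higher in PC3-EMT14 as well, whereas the receptors TGFBR1 and TGFBR2 and the SMAD2, SMAD3 and SMAD4 transducers lay within 2-fold. Of the target genes, ID2 was at 7.94 FPKM in PC3-EMT14 against 2.36 in PC3-Epi and the inhibitory SMAD6 at 4.22 FPKM in PC3-EMT14 against 10.7 in PC3-Epi.

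Receptor tyrosine kinases also went both ways. EPHA1, an ephrin receptor, was at 0.168 FPKM in PC3-EMT14 against 19.5 in PC3-Epi. ERBB3 was at 3.86 FPKM in PC3-EMT14 against 14.7 in PC3-Epi. DDR1, a collagen receptor of epithelia, was at 19.4 FPKM in PC3-EMT14 against 46.3 in PC3-Epi. On the other side FGFR1 was at 11.5 FPKM in PC3-EMT14 against 1.62 in PC3-Epi and KDR, EPHA4, EPHA5 and TIE1 were higher in PC3-EMT14. MET (59.1 and 64.7 FPKM), AXL (46.8 and 29.2 FPKM) and EPHA2 (143 and 107 FPKM) were strongly expressed in both lines. FGFR2, whose isoforms are a classic readout of ESRP activity, was at 0.0413 and 0.0402 FPKM, too low to be read. In all 4 of 23 expressed kinases were higher in PC3-Epi and 5 in PC3-EMT14.

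Cytokines were likewise divided, 4 of 19 expressed genes higher in PC3-Epi and 5 in PC3-EMT14. IL1B, a central inflammatory cytokine, was 31.1-fold higher in PC3-EMT14, and CSF3, the granulocyte growth factor, was at 8.75 FPKM in PC3-EMT14 against 0.153 in PC3-Epi. The receptors CXCR4 and CXCR7 were at 1.29 and 5.70 FPKM in PC3-EMT14 and 0.0495 and 0.228 FPKM in PC3-Epi, and their ligand CXCL12 was listed at 0 in both. IL8, a neutrophil chemokine, was higher in PC3-Epi (81.4 and 204 FPKM), as were CXCL16, CXCL5 and LTB. CXCL1, CXCL6 and IL18 were within 2-fold.

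Of 31 expressed cell cycle genes 12 were higher in PC3-Epi and none in PC3-EMT14, with 28 of 32 ratios above 0 and a median log2 ratio of 0.72. The largest ratios were those of MCM4 and MCM6, subunits of the replicative helicase, with MCM4 at 14.46 FPKM in PC3-EMT14 against 53.2 in PC3-Epi. MCM6 was at 15.4 FPKM in PC3-EMT14 against 40.6 in PC3-Epi, and PCNA, the replication clamp, at 119 FPKM in PC3-EMT14 against 268 in PC3-Epi. AURKB, a mitotic kinase, was at 18.4 FPKM in PC3-EMT14 against 45.7 in PC3-Epi. MKI67, the proliferation marker, was at 15.2 FPKM in PC3-EMT14 against 25.7 in PC3-Epi, under 2-fold. The inhibitors CDKN1A and CDKN2B were numerically higher in PC3-EMT14 (28.6 against 14.9 FPKM for CDKN2B). These differences are close to the threshold. Scaling both lines to the same summed FPKM lowered log2 ratios by up to 0.13. After it, 6 cell cycle genes remained higher in PC3-Epi and 1 was higher in PC3-EMT14. The larger summed FPKM of PC3-Epi, which sets this scaling, comes from the rows of small RNAs treated at the end.

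Of 20 interferon response genes 12 were higher in PC3-Epi and none in PC3-EMT14, with a median log2 ratio of 1.19. IFI27 was at 0.431 FPKM in PC3-EMT14 against 29.0 in PC3-Epi. BST2 (tetherin) was at 0.481 FPKM in PC3-EMT14 against 6.26 in PC3-Epi. OAS1, a sensor of double-stranded RNA, was at 7.23 FPKM in PC3-EMT14 against 37.0 in PC3-Epi. MX1, an antiviral GTPase, was at 2.52 FPKM in PC3-EMT14 against 14.1 in PC3-Epi. IRF9, a subunit of the factor that drives this group, was at 11.4 FPKM in PC3-EMT14 against 24.6 in PC3-Epi. With the same scaling 10 of the 12 were counted, and IRF9 and MX2 were not.

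Glycolysis and reference genes served as a background. Of 18 expressed glycolysis genes only ENO2 was 2-fold different (60.6 FPKM in PC3-EMT14 against 24.6 in PC3-Epi), and GAPDH was at 1830.3 FPKM in PC3-EMT14 against 1596 in PC3-Epi. Of 12 reference genes only PPIA passed 2-fold, ACTB was at 817 FPKM in PC3-EMT14 against 997 in PC3-Epi, and the median log2 ratio was 0.15.

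**Figure D3:**
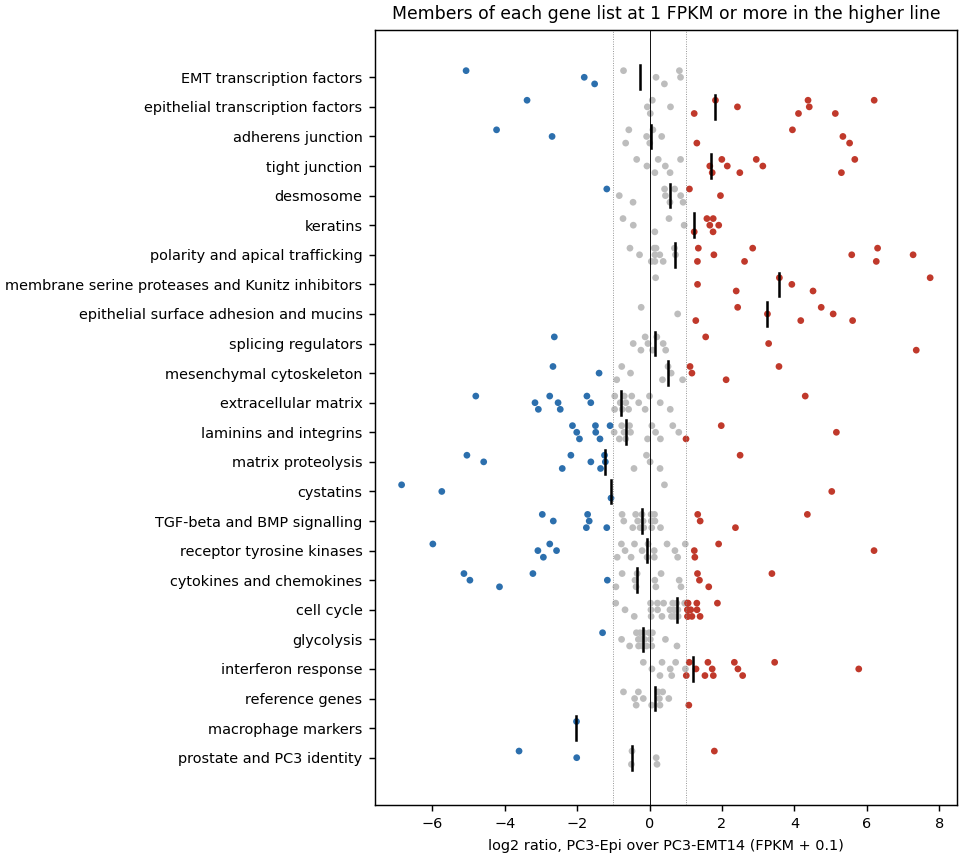
Log2 ratio of PC3-Epi over PC3-EMT14 (FPKM + 0.1) of each member at 1 FPKM or more in the higher line, by gene list; red and blue points passed 2-fold (dotted lines), grey points did not, and black bars are the medians of the points drawn. The bars of serine proteases (3.58) and surface proteins (3.25) stand farthest to the right, the bar of matrix proteolysis at -1.24, and the bar of reference genes at 0.15; the single macrophage point is CD68.

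ESRP1, the epithelial splicing regulator (chr8:95653364-95719694), was at 0.415 FPKM in PC3-EMT14 against 84.6 in PC3-Epi, the third largest ratio among genes other than small RNAs. ESRP2 was at 5.70 FPKM in PC3-EMT14 against 16.9 in PC3-Epi. RBM47, an RNA-binding protein of epithelia, was at 1.12 FPKM in PC3-EMT14 against 11.8 in PC3-Epi. NOVA1 was higher in PC3-EMT14 (6.31 and 0.936 FPKM), and 8 of the 12 expressed regulators, among them RBFOX2, QKI, MBNL1 and PTBP1, were within 2-fold. The share of each isoform in the summed isoform FPKM of its gene was therefore compared between the lines.

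An isoform share shifted by at least 25 percentage points in 185 of 4605 genes with 2 or more isoforms and 1 summed FPKM in both lines, or 4.02%. For 132 of the 185 the level of the gene as a whole was not 2-fold different. In a list of 45 genes known or named as targets of epithelial splicing, 40 could be read and 17 shifted, 42.5%, including SCRIB through its microRNA entry. CTNND1 was not counted among the 17, at 11.8 points, but its shares were taken of the row that TMX2 shares. The TMX2 isoforms enlarge that sum, so 11.8 points understates the shift within CTNND1. Its isoform TCONS_00005565 was at 13.3 FPKM in PC3-EMT14 against 0.263 in PC3-Epi, and TCONS_00005573 at 14.3 against 29.8 FPKM. The list was drawn up with results on these cells known, and part of it was named by the study from the same samples. The largest shift of a gene had a median of 20.5 points in the list and 3.48 points over all 4605 genes. The deposited isoforms carry identifiers of the assembly and the locus of the gene only, so the exons that differ were not analysed here.

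CD44, the hyaluronan receptor, is the known case of a switch between a standard and a variant form, and its total was nearly equal in the lines (43.5 and 51.6 FPKM; chr11:35160417-35253949). Isoform TCONS_00005418 made up 93.9% of it in PC3-EMT14 and 11.5% in PC3-Epi. TCONS_00005416 and TCONS_00005417 held most of the rest, at 0.922% and 4.99% in PC3-EMT14 and 40.1% and 46.9% in PC3-Epi. ENAH, an actin regulator with an epithelial exon, had 15.7% of isoform TCONS_00003514 in PC3-EMT14 and 66.1% in PC3-Epi.

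SLC44A2, a choline transporter, was nearly exclusive, with TCONS_00016293 at 17.0% in PC3-EMT14 and 98.4% in PC3-Epi. NUMB, an endocytic adaptor of cell fate, had TCONS_00010620 at 62.1% and 19.2%. The same kind of shift was seen in MAP3K7 (TCONS_00029274, 70.7% and 35.7%), a kinase of TGF-beta and cytokine signalling. EPB41L5, a band 4.1 protein of junction turnover, had TCONS_00019103 at 45.2% and 92.4%, at 3.39 and 5.33 FPKM in all. NFYA, a subunit of a CCAAT-binding factor, had 38.6% and 90.7% of TCONS_00028214, and TCF7L2, a Wnt pathway factor, 12.4% and 46.9% of TCONS_00004266.

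Abundant genes shifted as well. RPS24, a ribosomal protein at 5187 and 4826 FPKM in total, had TCONS_00004006 at 24.98% in PC3-EMT14 and 68.1% in PC3-Epi. MPRIP, which tethers myosin phosphatase to actin, had TCONS_00013715 at 6.47% and 41.7%. Other listed genes had nearly equal shares: the largest difference was 0.205 points for ACTN1, 1.35 points for INF2, 1.16 points for TPM3 and 3.78 points for TPM1.

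Of the 10 largest shifts at 5 summed FPKM or more in both lines, 6 came from a microRNA entry inside the row of another gene: REXO1, TMEM42, NOP56, SCRIB, CPSF1 and ZNF207. The others were CA12, SIGIRR, CD44 and SLC44A2. CA12, a carbonic anhydrase of the plasma membrane, was made almost wholly from TCONS_00011747 in PC3-EMT14 (99.6%) and from TCONS_00011746 in PC3-Epi, where TCONS_00011747 was listed at 0. SIGIRR, a damping receptor of the interleukin-1 family, had TCONS_00006229 at 94.0% and 4.61%. PRKAR1B, SLC25A14 and GPR56, an adhesion receptor, came next among genes without a small RNA in their row.

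**Figure D4:**
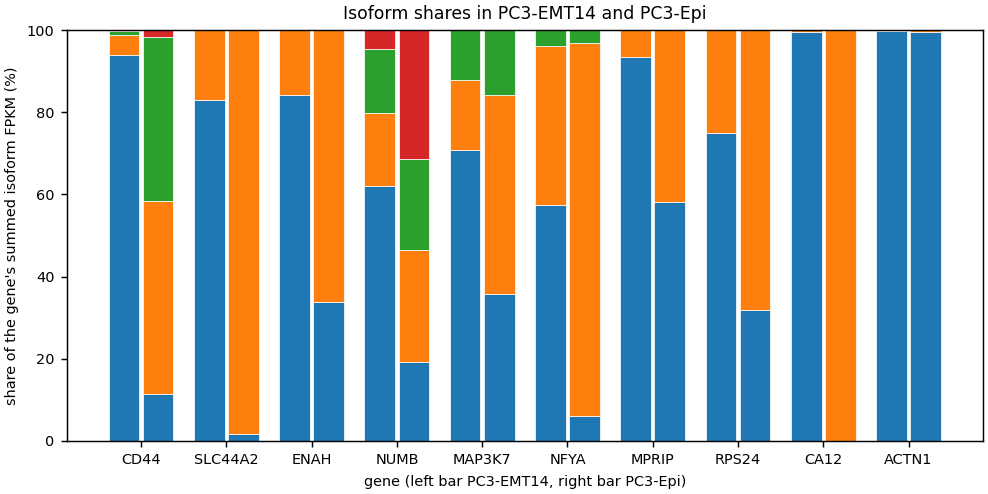
Share of each isoform in the summed isoform FPKM of its gene (percent) in PC3-EMT14 (left bar) and PC3-Epi (right bar) for 10 genes; colours rank the isoforms of a gene by their share in PC3-EMT14. The blue isoform of CD44 is 93.9% of the left bar and 11.5% of the right, and that of SLC44A2 83.0% and 1.64%, while the bars of ACTN1 differ by 0.205 points.

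Differences were also read along the chromosomes, as the running median log2 ratio of 25 neighbouring expressed genes over 11050 windows. Neighbouring windows overlap and share most of their genes, so a single raised stretch gives many windows. The 5th and 95th percentiles of these medians were -0.30 and 0.43. The highest window lay on the short arm of chromosome 10, chr10:5454518-13390298 on hg19, from NET1 to SEPHS1, with a median of 0.92. All 25 genes had a ratio above 0, and 10 passed 2-fold, among them GATA3, an epithelial transcription factor (1.02 FPKM in PC3-EMT14 against 5.46 in PC3-Epi), MCM10 (1.86 FPKM in PC3-EMT14 against 7.95 in PC3-Epi), GDI2 (38.8 FPKM in PC3-EMT14 against 79.8 in PC3-Epi) and CDC123 (26.1 FPKM in PC3-EMT14 against 57.2 in PC3-Epi). ATP5C1, an ATP synthase subunit, was at 77.4 FPKM in PC3-EMT14 against 143 in PC3-Epi, under 2-fold.

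High windows followed on chromosome 8 (chr8:42948657-61779465, median 0.86), chromosome 7 (chr7:44154286-51384515, 0.85) and chromosome 2 (chr2:136499189-160089170, 0.77). Chromosome 2, with 725 windows in all, carried 290 of the 665 above 0.4, and 61.8% of its 749 expressed genes had a ratio above 0. The share was as high on chromosomes 9 (64.5% of 476), 6 (62.8% of 597) and 8 (62.8% of 406), and lowest on chromosomes X (33.5% of 394) and 18 (36.05% of 172). The lowest window lay at chr18:61322431-77514507, with a median of -0.58 and 20 of 25 ratios below 0. PPIA lies inside the chromosome 7 window, RPS20 and MCM4 inside the chromosome 8 window, and MCM6 inside the chromosome 2 window. PPIA, RPS20, MCM4 and MCM6 therefore lie in regions of raised ratios. Other genes of these regions do not follow them: IGFBP3 and IGFBP1, both higher in PC3-EMT14, lie inside the chromosome 7 window too. In that window 9 genes were higher in PC3-Epi and 3 in PC3-EMT14.

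**Figure D5:**
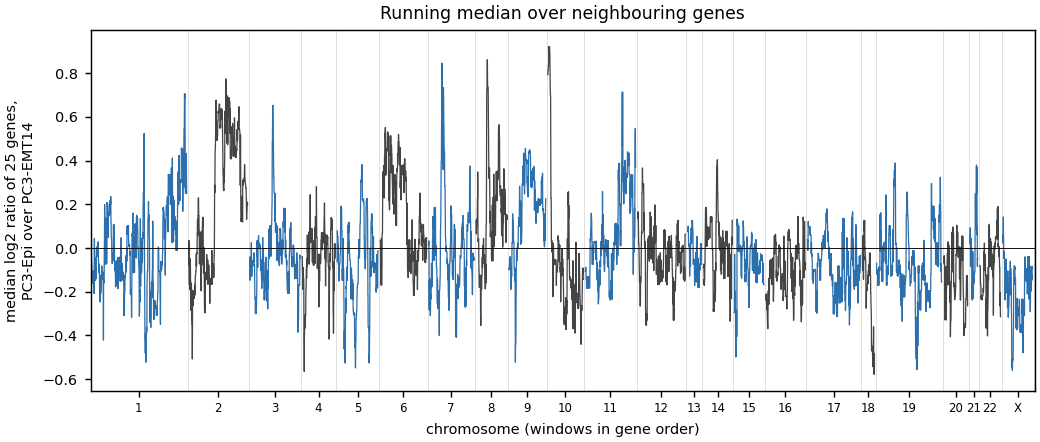
Median log2 ratio of PC3-Epi over PC3-EMT14 in overlapping windows of 25 neighbouring expressed genes, in gene order along each chromosome, with alternating colours by chromosome. On chromosome 2, 290 of 725 windows lie above 0.4, narrow peaks stand on chromosomes 10, 8 and 7 (0.92, 0.86 and 0.85), and the lowest value, -0.58, is on chromosome 18.

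Small RNAs held the extremes of the table. Of 167 rows of small nucleolar RNAs, microRNAs and other short RNAs at 1 FPKM or more, 88 were higher in PC3-Epi and 55 in PC3-EMT14, and 92 of these 143 were listed at 0 in the other line. RNU86 was listed at 0 in PC3-EMT14 and at 12551 FPKM in PC3-Epi, SNORD29 at 2415 and 0 FPKM. MIR31, a microRNA studied in metastasis, was at 483 FPKM in PC3-EMT14 and listed at 0 in PC3-Epi. These rows held 2.67% of all FPKM in PC3-EMT14 and 10.9% in PC3-Epi. Because FPKM divides by length, few fragments make a large value in so short a transcript, the number of fragments is unknown, and no fold is given for these rows. Without such transcripts 794 genes were higher in PC3-Epi and 932 in PC3-EMT14.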

How the data were processed

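RNA of PC3-Epi (2 samples) and PC3-EMT14 (3 samples) was isolated near confluence with an RNeasy kit and DNase and sequenced as paired ends. The authors aligned the reads with TopHat to the hg19 transcriptome and ran Cuffdiff with upper-quartile normalization and multi-read and bias corrections. The deposited values are FPKM, 1 per gene or isoform and line, pooled over the samples of that line, so the depth and the spread of the samples are unknown. Whether counting used strand is not given in the sources used here, and overlapping genes share rows. The tables also hold the authors' own fold changes, test statistics and p-values, which were not used.

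Log2 ratios were computed on FPKM + 0.1 with Python 3.11.15, pandas 2.3.3 and numpy 2.4.6. A gene was counted at 2-fold or more with 1 FPKM or more in the higher line. Isoform shares were compared in genes with 2 or more isoforms and 1 FPKM in both lines, at a shift of 25 percentage points. The rule for named genes took the 15 largest ratios and the 10 largest differences in each direction, the members of the lists and the 10 genes with the largest isoform shifts. Nearly all of its top places went to small RNAs, so the rule was also applied without them, a choice made after the values were seen. Members and gene lists were chosen with earlier results of these data known. The steps were tested on simulated data. Cuffdiff quantified PC3-EMT14 again for 2 other comparisons, with median ratios of 0.979 and 0.969 to the values used. That repeats the same samples and is no replicate. Alternatives varied the pseudocount, the floor, the fold, the scaling, the repeat tables, the authors' status filter, the window size and the small RNA rows. Some genes of the lists are counted but not reported here by name.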

Additional observations from a re-analysis of the deposited data

How the results depend on the processing

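No paired analysis was possible because each line has 1 pooled value per gene, and for the same reason no sample could be left out in turn. With no replicate spread to judge by, a median was taken to have moved when it changed by over 0.25 on the log2 scale, and a count when it changed by over 1.5 times. Of the alternatives to the summary results, 129 stayed within these limits and 24 did not. The 129 include 24 list medians with rescaling and 24 with centring, which could not pass the limit. Ratios of single genes of the text and lists moved by over 0.25 in 194 of 520 cases with a pseudocount of 1 FPKM, and in 1 case without small RNAs. Rescaling and centring shift a ratio by at most 0.13 and 0.01, so neither could move one by that much. Genes higher in PC3-Epi and in PC3-EMT14 numbered 550 and 562 with a floor of 5 FPKM, 365 and 371 at 4-fold, and 1857 and 1981 at 1.5-fold. At 4-fold no keratin (6 at 2-fold) and no cell cycle gene (12 at 2-fold) was counted, and 1 of the 3 EMT factors was, as it was with the floor of 5 FPKM. Scaling both lines to the same summed FPKM gave 725 and 1177, which takes the share higher in PC3-Epi from 47.2% to 38.1%. Summed FPKM was 435970 in PC3-EMT14 and 476275 in PC3-Epi, of which rows of small RNAs held 11636.5 and 52063.5. The gap that this scaling removes thus lies in the small RNA rows, while the scaling lowers all genes of PC3-Epi. Every count given with this scaling carries that limit. With a pseudocount of 1 FPKM the median log2 ratios became 0.68 for tight junctions, 0.44 for keratins, 1.20 for serine proteases, 1.48 for surface proteins and -0.20 for prostate identity. Over members at 1 FPKM or more they became -0.27 for EMT factors, 1.82 for epithelial factors, 1.695 for tight junctions, 1.23 for keratins, 3.58 for serine proteases, 3.25 for surface proteins, -1.24 for matrix proteolysis, -1.06 for cystatins, -0.34 for cytokines and -2.02 for macrophage markers. The medians of EMT factors, cytokines and macrophage markers thereby changed sign, being slightly above 0 over all members with signal. Leaving out small RNAs, an alternative chosen after seeing the data, gave 0.43 for polarity genes. Shifted isoforms were found in 69 genes at 40 points and in 87 genes at 5 summed FPKM. Of 225 named genes counted as different, 15 were no longer counted with the larger pseudocount and 13 with the rescaling, which added 7. Depth is unknown, so no floor on a level listed at 0 can be given.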

Other observations

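Other gene families, chosen after their values were seen, are described here by their levels. The kallikreins, a cluster of secreted serine proteases on chromosome 19, went both ways: KLK5 was at 0.687 FPKM in PC3-EMT14 against 48.6 in PC3-Epi and KLK6 at 2.20 FPKM in PC3-EMT14 against 47.7 in PC3-Epi, and KLK8 had the same direction. KLK10 was at 6.26 FPKM in PC3-EMT14 against 0.659 in PC3-Epi and KLK11 at 4.31 FPKM in PC3-EMT14 against 0.467 in PC3-Epi, and KLK4 and KLK14 were also higher in PC3-EMT14. S100 genes were split in the same way. S100P was at 21.5 FPKM in PC3-EMT14 against 117 in PC3-Epi, with S100A1 and S100A2 besides S100A9 and S100A14 higher in PC3-Epi, while S100A4, a protein linked to motility, was at 61.9 FPKM in PC3-EMT14 against 27.9 in PC3-Epi. Of the insulin-like growth factor binding proteins, IGFBP3 was at 356 FPKM in PC3-EMT14 against 83.0 in PC3-Epi, IGFBP4, IGFBP6 and IGFBP1 were higher in PC3-EMT14 too, and IGFBP2 was at 0.688 FPKM in PC3-EMT14 against 12.01 in PC3-Epi. All 5 rows of MAGE-D and MAGE-H genes at 1 FPKM or more were higher in PC3-EMT14, beside 7.97% of all expressed genes, with MAGED2 at 91.5 FPKM in PC3-EMT14 against 26.9 in PC3-Epi. These rows are 4 genes, MAGED4B having 2 rows. All lie on chromosome X, and MAGED1 and MAGED4B inside its lowest window (chrX:48779303-53350522, median -0.56). The complement regulators CD55 and CD59, which protect cells from lysis, were at 162 and 96.5 FPKM in PC3-EMT14 and 25.8 and 31.8 FPKM in PC3-Epi.

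In the Notch pathway the receptor NOTCH3 was at 0.687 FPKM in PC3-EMT14 against 11.1 in PC3-Epi and the ligand JAG2 at 4.17 FPKM in PC3-EMT14 against 9.32 in PC3-Epi, and the glycosyltransferase gene LFNG was also higher in PC3-Epi. The target genes differed among themselves: HEY1 was at 66.3 FPKM in PC3-EMT14 against 5.64 in PC3-Epi, HES4 at 7.20 FPKM in PC3-EMT14 against 19.9 in PC3-Epi, and HES1 at 31.7 FPKM in PC3-EMT14 against 41.6 in PC3-Epi, under 2-fold. LFNG was not counted with both lines scaled to the same summed FPKM. The connexin GJB5 was at 0.799 FPKM in PC3-EMT14 against 4.82 in PC3-Epi, and GJA1, a connexin of many cell types, at 30.9 FPKM in PC3-EMT14 against 8.81 in PC3-Epi. The EGF receptor ligands AREG (amphiregulin), TGFA and EPGN were higher in PC3-Epi, AREG in both of its rows, and TGFA was not counted after that scaling. NRG2, a neuregulin, had the largest ratio of the family at 5.28 FPKM in PC3-EMT14 against 0.238 in PC3-Epi, and EGF, BTC and HBEGF were within 2-fold. CAV1 and CAV2, the caveolins, were at 173 and 33.2 FPKM in PC3-Epi and 78.6 and 12.7 FPKM in PC3-EMT14. CRABP2 was higher in PC3-Epi (119 and 263 FPKM), opposite to CRABP1. The potassium channel gene KCNMA1 was at 109 FPKM in PC3-EMT14 against 7.89 in PC3-Epi, and SERPINB7, a serine protease inhibitor, at 139.8 FPKM in PC3-EMT14 against 34.2 in PC3-Epi. Among 33 histone rows at 1 FPKM or more, 8 were higher in PC3-Epi and none in PC3-EMT14, most of them near 1 FPKM, against 7.13% of all expressed genes. With the lines scaled to the same summed FPKM 3 of the histone rows were counted. HIST1H1C, a linker histone, was the most abundant of the 8 at 25.1 FPKM in PC3-EMT14 against 63.2 in PC3-Epi.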
